A study of Mus musculus with 9 samples.

Results

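Transfer RNA synthetases attach each amino acid to its tRNA, and translation elongation factors carry the charged tRNA to the ribosome and move the ribosome along the mRNA. The genes described here were chosen by name: 40 listed symbols of cytosolic and mitochondrial synthetases and of elongation factors and their kinase. Of these, 30 had a probe set annotated to that gene alone, out of 12393 genes with such a probe set. The 10 listed genes with none were Mars, Dars, Aars2, Lars2, Mars2, Nars2, Vars2, Wars2, Yars2 and Eef1g, and they are not analysed here. Each gene was represented by its brightest probe set. Farsa, a subunit of phenylalanyl-tRNA synthetase, fell under the filter on dim probe sets, so 29 of the 7964 genes tested were of this kind: 9 cytosolic class I synthetases, 8 cytosolic class II synthetases, 5 mitochondrial synthetases and 7 elongation genes.

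The measurements came from striatum, left and right, of male C57BL/6J mice aged 56 days. Of 9 mice, 3 had received saline (control), 3 methamphetamine (METH) and 3 MPTP, each mouse was measured on 1 Affymetrix array, and the series' design text speaks of biological replicates. METH and MPTP both damage the dopamine terminals that reach the striatum, and both serve as models of Parkinson's disease. All mice were of 1 strain, sex and age, and neither the dose nor the timing of the injections is given in the sources used here. Striatal tissue was present by its markers: all 8 spiny neuron genes measured, of 12 listed, passed the filter, and their summed signal was 215010 to 234709 on control arrays, 208561 to 222342 on METH arrays and 190584 to 222061 on MPTP arrays.

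Synthetases fall into class I and class II by the fold of their catalytic domain. Most cells make 1 set for the cytosol and another, encoded by separate nuclear genes, for mitochondria, although Kars and Gars serve both compartments. Several cytosolic enzymes are bound in a large multisynthetase complex with scaffold proteins, among them the product of Eef1e1. In elongation, Eef1a1 and Eef1a2 encode the factor that delivers charged tRNA, the latter being the form of neurons and muscle. Eef1b2 and Eef1d, in a complex with Eef1g, reload this factor with GTP. Eef2 drives translocation until Eef2k phosphorylates and inactivates it. Cytosolic synthetase genes are known targets of ATF4, the transcription factor of the amino acid and integrated stress response, while mRNAs of elongation factors are known for a pyrimidine tract at their start that ties their translation to mTOR signalling.

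Promoter letters of the element that ATF4 is known to bind are shown because synthetase genes are known targets of this response. RefSeq promoter windows of the mouse assembly GRCm38.p6, 250 bases before to 50 bases after each annotated start, were held for 21 of the 30 genes. They were searched on both strands for TGATGNAA, the core of the C/EBP-ATF response element, which reads TTNCATCA on the other strand. The stretches below, of 30 bases each, are written 5′ to 3′ along the gene's own strand with the matching letters in capitals.
Iars, chr13:49682126-49682155, plus strand: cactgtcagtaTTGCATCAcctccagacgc
Yars, chr4:129189895-129189924, plus strand: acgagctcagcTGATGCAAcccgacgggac
Gars, chr6:55037960-55037989, plus strand: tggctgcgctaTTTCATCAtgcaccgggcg
Tars, chr15:11399655-11399684, minus strand: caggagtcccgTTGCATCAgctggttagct
Eef2k, chr7:120851094-120851123, plus strand: ctttctgcttgTTTCATCAagctcagcttg
The letters were found in 5 of 11 cytosolic synthetases with a window (45.5%) and in 6 of all 21 genes (28.6%), against 1219 of 27025 genes in the table (4.51%). The match of Gars began 30 bases and that of Tars 15 bases before the start, while the match of Iars began at base 8 and that of Yars at base 4 of the transcribed part. Eef2k held its match in 1 of 3 windows. A C followed by at least 4 pyrimidines at the annotated start was found in 0 of the 21 genes and in 813 of all genes (3.01%). Only the exact annotated start base was searched, so this does not show that mRNAs of elongation factors lack the tract. Such matches are descriptions of these windows, and no binding was measured.

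The deposited signals are linear and ran from 0.342 to 84013 over 22690 probe sets, with the same trimmed mean of 2501 on every array (2% left out at each end). Values were compared as log2 with limma, a linear model whose variances are moderated across genes, and p-values were adjusted over all 7964 genes by the Benjamini-Hochberg method. An adjusted p under 0.05 was reached by 1 gene against control in METH and by 1 in MPTP (0.0126% of genes each), both times Gfap, the astrocyte filament gene. METH 2 had the highest array median, 1233 against 1110.5 to 1178 on the other arrays, and the narrowest distribution. Since the samples are whole tissue, fewer cells of a type and less RNA per cell cannot be told apart.

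In METH, 0 of the 29 synthetase and elongation genes passed limma's test against control (adjusted p from 0.545 to 0.997), and 1 of them, Ears2, was at an unadjusted p under 0.05, against 8.25% of all genes. Ears2 was under the filter's signal of 741 on all control arrays and entered the test only through its METH and MPTP values, so its count here supports nothing. The fold change was below 0 for 20 of 29 genes (69%), with a median of -0.08 on the log2 scale, beside 49.7% and a median of 0.00 for all genes tested. When arrays were centred on their medians instead, 26 of 29 were below 0 (89.7%) with a median of -0.14, where the median of all genes was -0.06. METH and control arrays did not overlap for 3 of 29 genes (10.3%), against 13.7% of all genes. Ears2 was higher in METH, as were 6.48% of all genes, and Kars and Gars were lower, as were 7.19%. A test for any difference among the 3 groups was passed by 0 of the 29 genes (lowest limma adjusted p = 0.883), and 0 had an unadjusted p under 0.05, where 0.0126% of all genes passed and 5.78% had an unadjusted p under 0.05.

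**Figure D1:**
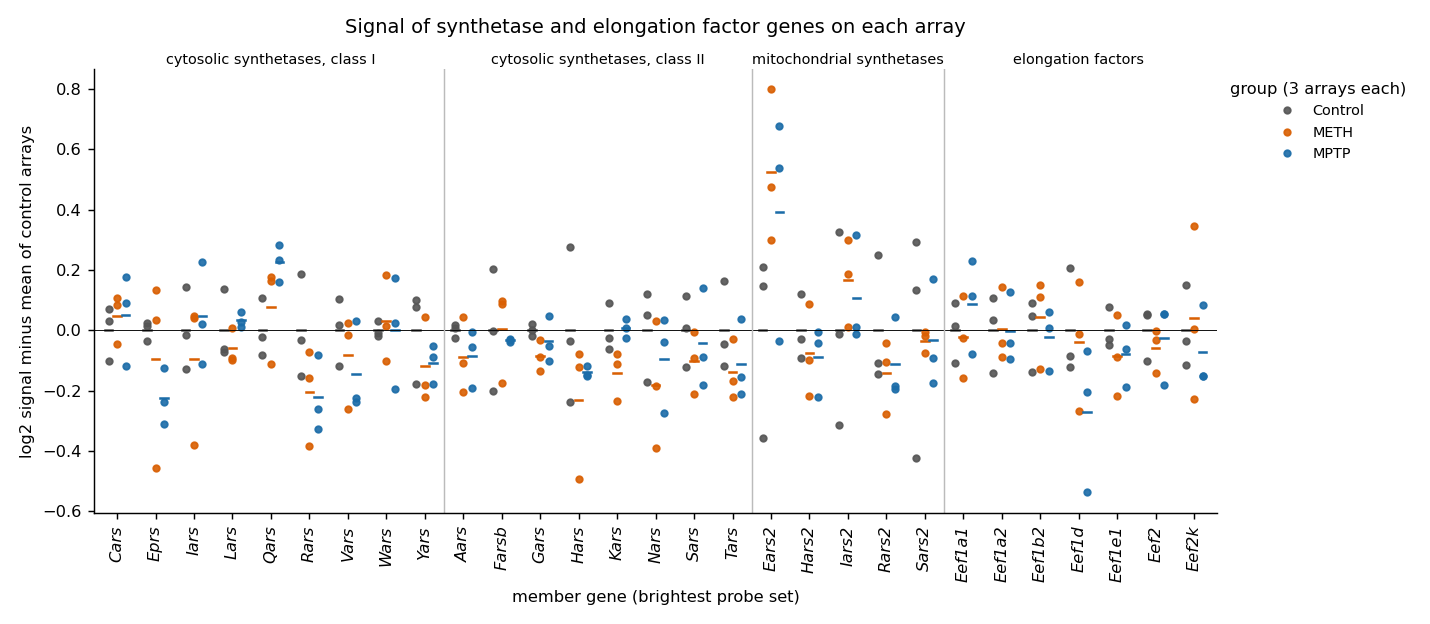
Log2 signal of each of the 29 tested synthetase and elongation genes on each of the 9 arrays, as a difference from the mean of the 3 control arrays (vertical axis), with genes grouped by role along the horizontal axis colour marking the group and short bars the group means. Ears2 spreads the most, and METH 2 gives the lowest point of 10 genes.

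Among cytosolic synthetases, 13 of 17 had a METH value below control, with a median of -0.10. The median was -0.06, with 11 of 17 below control, when METH 2 was left out. Class II enzymes held 7 of the 8 possible values below 0 (median -0.12), the exception being Farsb at 0.00. Other probe sets of Farsb over the filter gave -0.30 and -0.05. Class I enzymes held 6 of 9 (median -0.08), with Cars, Qars and Wars above 0. Of 7 measured genes listed for the multisynthetase complex, Eef1e1 included, 6 were below 0, with a median of -0.10. The scaffold genes Aimp1 and Aimp2 were counted on another list and gave 0.01 and -0.10 in METH.

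Kars, the lysyl-tRNA synthetase, gave signals of 3562, 3859 and 3473 in control 1, 2 and 3, of 3436, 3083 and 3353 in METH and of 3721, 3649 and 3563 in MPTP. All 3 METH arrays lay below all control and MPTP arrays, although METH 1 was close to control 3. Its log2 fold change in METH was -0.14 ± 0.09 (SE, n = 3 per group; limma adjusted p = 0.680), and in MPTP it was 0.01.

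Gars, the glycyl-tRNA synthetase, had the tightest replicates of these genes. Its signals were 6322, 6400 and 6224 in control, 5943, 5747 and 6169 in METH and 6522, 5888 and 6085 in MPTP. METH lay wholly below control, with METH 3 just under control 3, while MPTP spanned both. The METH difference was -0.09 ± 0.08 on the log2 scale (limma adjusted p = 0.789), and the MPTP difference was -0.04.

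Rars and Hars, the arginyl and histidyl enzymes, had the lowest METH fold changes among the 17 cytosolic synthetases tested. Rars measured 3808, 3272 and 3016 in control, 2568, 3001 and 3186 in METH and 3168, 2671 and 2794 in MPTP, so that METH 3 and MPTP 1 lay within the control range. Its log2 fold change was -0.20 ± 0.12 in METH (limma adjusted p = 0.678) and -0.22 ± 0.12 in MPTP (adjusted p = 0.873), both against the same controls. Hars measured 6148, 4309 and 4957 in control, 4668, 3608 and 4815 in METH and 4584, 4685 and 4575 in MPTP. Control 1 was the highest of the 9 Hars values and METH 2 the lowest, and the METH difference of -0.23 ± 0.15 had an adjusted p of 0.692. Without control 1, the values were -0.09 for Hars in METH, -0.11 for Rars in METH and -0.13 for Rars in MPTP, and without control 2 that of Hars was -0.35. Another Hars probe set over the filter gave -0.11 in METH and -0.10 in MPTP with all arrays.

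The other cytosolic synthetases are given by their range over 9 arrays and their METH and MPTP log2 fold changes. Aars, for alanine, ranged from 5148 to 6113, with -0.09 and -0.08. Nars, for asparagine, ranged from 8616 to 12278, with -0.18 and -0.09, and its lowest array was METH 2. Sars, for serine, ranged from 5129 to 6544, with -0.10 and -0.04, again lowest in METH 2. Tars, for threonine, and Yars, for tyrosine, were also lowest in METH 2, at 1340.3 and 2751, with -0.14 and -0.11 for Tars and -0.12 and -0.11 for Yars. Iars, for isoleucine, ranged from 3698 in METH 2 to 5629 in MPTP 3, with -0.10 and 0.05. Vars, for valine, ranged from 1340.2 to 1724, with -0.08 and -0.14. Values near 0 in both models were held by Cars, for cysteine (1804 to 2214, with 0.05 and 0.05), Wars, for tryptophan (4407 to 5729.9, with 0.03 and 0.00), and Farsb, the second phenylalanyl subunit (2806 to 3718, with 0.00 and -0.03). Farsa, under the filter and therefore untested, gave 716, 574 and 618 in control, 662, 299 and 339 in METH and 761, 255 and 704 in MPTP, with 1 low array or more in each treated group.

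The METH values of cytosolic synthetases with the promoter letters shown above lay within the range of the cytosolic synthetases whose window lacked them. The 5 with the letters, Aars, Gars, Iars, Tars and Yars, had METH values of -0.14 to -0.09 with a median of -0.10. The 5 tested cytosolic genes without them, Eprs, Farsb, Kars, Qars and Sars, had METH values of -0.14 to 0.08 with the same median of -0.10. In MPTP the medians were -0.08 and -0.03. These are descriptions of small sets with no test.

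Among mitochondrial synthetases, the signal of Ears2, the glutamyl enzyme, differed most between groups. It measured 698, 668 and 470 in control, 742, 1048 and 838 in METH and 876, 588 and 963 in MPTP. All METH arrays were above all controls, and MPTP 2 lay among the controls. The METH fold change was 0.52 ± 0.22 on the log2 scale (95% interval 0.04 to 1.01), with an unadjusted p of 0.0354 and a limma adjusted p of 0.545. In MPTP it was 0.39 ± 0.22 with an adjusted p of 0.873. All 3 control arrays lay under the filter's signal of 741, and the treated arrays alone lifted its mean log2 signal to 9.54, just over the filter of 9.53, so a difference was built into its selection and its p is no evidence of one. Without control 3 the value was 0.35 in METH and 0.21 in MPTP, and without MPTP 2 it was 0.61 in MPTP. Its other 2 probe sets, under the filter, gave 0.27 and -0.84 in METH and -0.04 and -0.16 in MPTP. The remaining mitochondrial enzymes had METH and MPTP values of -0.08 and -0.09 for Hars2, 0.17 and 0.11 for Iars2, -0.14 and -0.11 for Rars2 and -0.03 and -0.03 for Sars2. The median of the 5 was -0.03 in each model and turned to 0.11 in METH and 0.10 in MPTP when control 3 was left out.

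**Figure D2:**
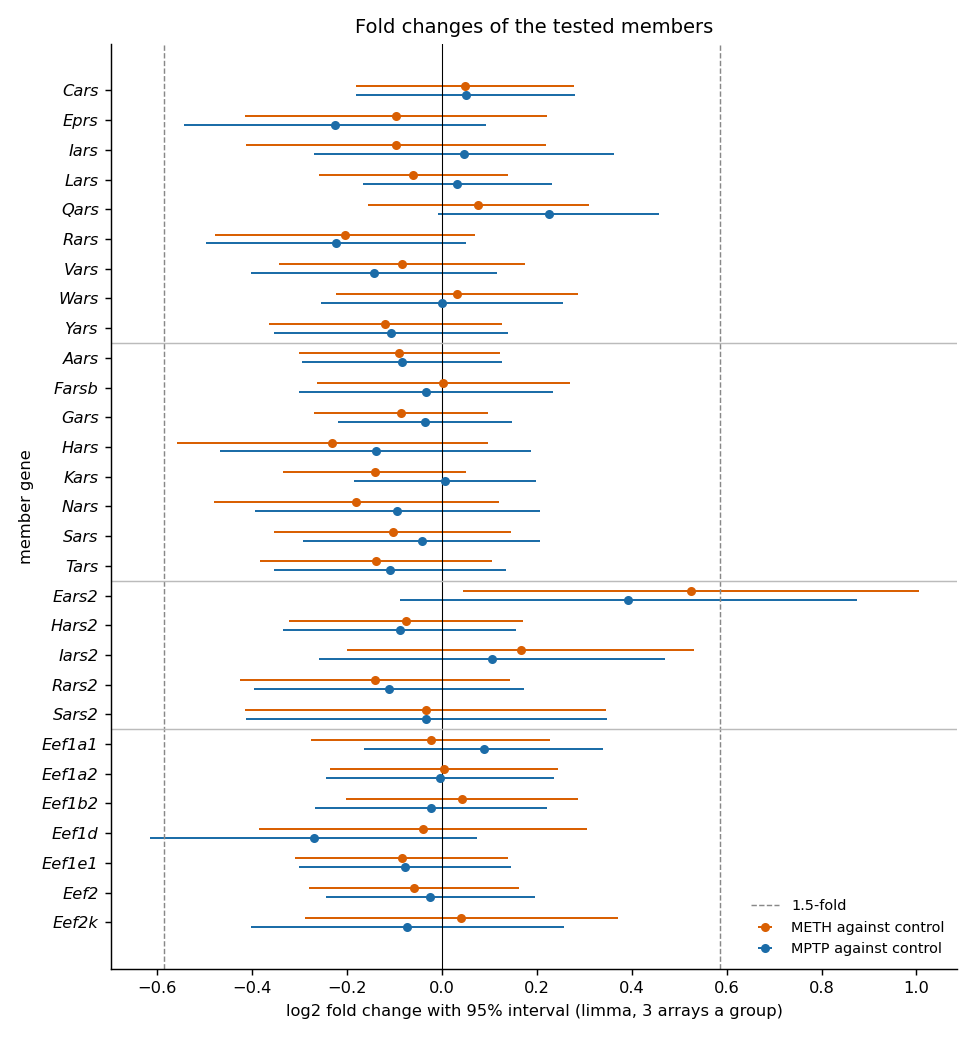
Log2 fold change against control of the 29 tested genes (horizontal axis) with its 95% interval from limma, for METH and MPTP, 3 arrays a group, with dashed lines at 1.5-fold. The METH interval of Ears2, 0.04 to 1.01, is the only METH or MPTP interval that leaves out 0, for a gene that passed the filter only through its treated arrays.

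The 7 elongation genes counted throughout include Eef1e1, whose product is a scaffold of the multisynthetase complex. Their METH fold changes lay between -0.09, the value of Eef1e1, and 0.04 on the log2 scale. Eef1a1 measured 72390.4, 66487 and 76328 in control, 70302 in METH 1, 77442 in METH 2 and 64186 in METH 3, and 77397, 67784 and 84013 in MPTP. The 3 groups overlapped throughout, with log2 fold changes of -0.02 ± 0.11 in METH (limma adjusted p = 0.962) and 0.09 ± 0.11 in MPTP (adjusted p = 0.951). Eef1a2 measured 43126, 38171 and 45338 in control, 39559, 46484 and 40887 in METH and 45945, 40918 and 39414 in MPTP. Its group means were 42212 ± 3670.2, 42309.9 ± 3675 and 42092 ± 3420.2 (SD, n = 3), and both fold changes were 0.00 ± 0.11 (limma adjusted p = 0.995 and 0.997). Because Eef1a1 and Eef1a2 are close in sequence, and Eef1a1 has many pseudogenes, some signal may be shared between copies.

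Eef2, the translocation factor, measured 29596, 32848 and 32925 in control, 31032, 31690.5 and 28808 in METH and 32934, 32969 and 28001 in MPTP. The lowest array was MPTP 3, and the fold changes were -0.06 ± 0.10 in METH and -0.02 ± 0.10 in MPTP (limma adjusted p = 0.884 and 0.985). Its kinase gene Eef2k measured 1237, 1086 and 1028 in control, 1117, 1415 and 950.04 in METH and 1002, 1181 and 1002 in MPTP. METH held both the highest and the lowest of these values, with fold changes of 0.04 ± 0.15 and -0.07 ± 0.15 (adjusted p = 0.949 and 0.972). For Eef1a1, Eef1a2, Eef2 and Eef2k, the sign of a fold change against control turned under other scalings or when single arrays were left out, except for Eef1a1 in MPTP, so no direction is given for them. Eef1b2 ranged from 9507 to 11611 and Eef1e1 from 4262 to 5236, with METH values of 0.04 and -0.09 and MPTP values of -0.02 and -0.08.

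The 95% intervals show how large a change these arrays leave room for. In METH, the interval lay within 1.5-fold of control in either direction for 28 of 29 genes, all but Ears2, against 82.2% of all genes. It lay within 1.2-fold for 2 of 29, Eef1a2 and Lars (6.9%), against 11.5% of all genes. In MPTP, 27 of 29 genes were within 1.5-fold, all but Ears2 and Eef1d, against 84.2%, and 6 of 29 were within 1.2-fold, Eef1a2, Eef2, Gars, Kars, Lars and Wars (20.7%), against 14% of all genes. Between METH and MPTP, 28 of 29 lay within 1.5-fold (against 87.1%) and 8 of 29 within 1.2-fold (against 16%). The median SD within groups was 0.13 log2 units for the 29 genes and 0.15 for all genes tested. These intervals are per gene and not widened for the number of genes.

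MPTP was compared with the same 3 control arrays, so the values of both models share any deviation of the controls. None of the 29 genes passed limma's test in MPTP (adjusted p from 0.873 to 1.000), and 0 had an unadjusted p under 0.05, against 5.49% of all genes. The fold change was below 0 for 20 of 29 (69%), with a median of -0.04, beside 48.2% and 0.01 for all genes, and for 23 of 29 (79.3%) when arrays were centred on their medians. Cytosolic synthetases held 11 of 17 values below 0 (median -0.04), of which class II held 7 of 8 and class I held 4 of 9. The genes listed for the multisynthetase complex held 3 of 7. The elongation genes held 6 of 7 (median -0.02), which became 3 of 7 without control 3 and, with a median of 0.02, 3 of 7 without MPTP 3. MPTP and control arrays did not overlap for Qars and Eprs, 2 of 29 genes (6.9%), against 11.3% of all genes (6.13% higher and 5.14% lower in MPTP).

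Qars and Eprs, for glutamine and for glutamate with proline, lay on opposite sides of control in MPTP. Qars measured 2019, 2108 and 2302 in control, 2421, 2398 and 1979 in METH and 2516, 2599.9 and 2391 in MPTP. All MPTP arrays were above all controls, by a log2 difference of 0.23 ± 0.10 (95% interval -0.01 to 0.46; limma unadjusted p = 0.0571, adjusted p = 0.873), and METH differed by 0.08 ± 0.10. With the mean of all its probe sets in place of the brightest, the MPTP value was -0.01. Other Qars probe sets over the filter gave 0.11 and -0.05 in MPTP, and a dim one under the filter, also in that mean, gave -0.34. Eprs measured 2639, 2653 and 2546 in control, 2674, 1904 and 2863 in METH and 2396, 2212 and 2104 in MPTP. MPTP lay below control throughout, by -0.23 ± 0.14 (limma adjusted p = 0.883), but its other 2 probe sets gave -0.04 and 0.15.

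Eef1d, a subunit of the exchange complex that reloads the delivery factor, had the lowest MPTP fold change. It measured 3881, 3088 and 3169 in control, 3336, 2792 and 3753 in METH and 2918, 3203 and 2315 in MPTP. MPTP 2 lay within the control range and MPTP 3 was the lowest array. The fold change was -0.27 ± 0.15 in MPTP (95% interval -0.62 to 0.07; limma adjusted p = 0.882) and -0.04 ± 0.15 in METH. The MPTP value was -0.14 without MPTP 3, -0.17 without control 1 and -0.04 with the mean of all its probe sets. Another Eef1d probe set over the filter gave 0.03 in MPTP, and a dim one under the filter, also in that mean, gave 0.11.

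**Figure D3:**
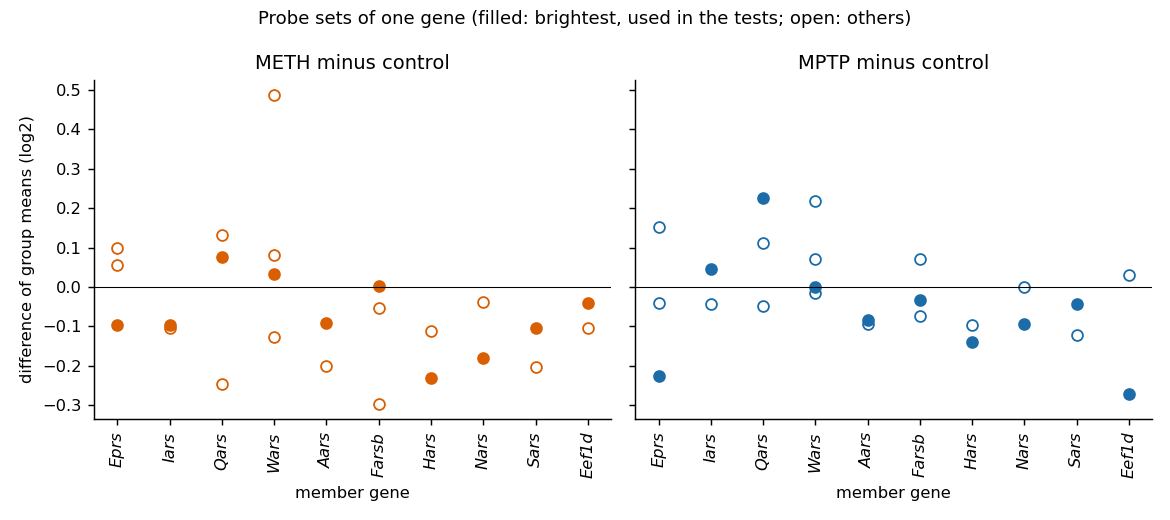
Difference of group means from control, in log2 units (vertical axis), for the probe sets over the filter of the 10 genes that have more than 1, in METH and MPTP, where a filled point is the brightest probe set and open points are the others. Probe sets of Wars, Qars, Eprs and Farsb lie on both sides of 0 in both models.

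Probe sets of 1 gene often differed in sign. Of the 10 genes with more than 1 probe set over the filter, all probe sets had the same sign for 6 in METH (Aars, Eef1d, Hars, Iars, Nars and Sars) and for 4 in MPTP (Aars, Hars, Nars and Sars). The 4 probe sets of Wars ran from -0.13 to 0.49 in METH. Another 17 of the 30 genes, Kars, Gars and Rars among them, had a single probe set and so no such check.

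In the direct comparison of METH with MPTP, the differences of means use no control arrays. Their SEs, intervals and p-values do, because the variance came from the shared fit of all arrays, controls included. None of the 29 genes passed (limma adjusted p = 0.999 for each), and 0 had an unadjusted p under 0.05, against 2.85% of all genes. Arrays did not overlap for Kars and Lars, the lysyl and leucyl enzymes (2 of 29, 6.9%, against 7.09% of all genes, 3.39% higher and 3.7% lower in METH). Kars was lower in METH by -0.15 ± 0.09 on the log2 scale (unadjusted p = 0.117). Lars measured 2507.5, 2875 and 2488 in control, 2446, 2457 and 2633 in METH and 2729.8, 2669.6 and 2634 in MPTP, with METH 3 just under MPTP 3. Its METH minus MPTP difference was -0.09 ± 0.09 (unadjusted p = 0.324). The differences of Qars and Eef1d were -0.15 ± 0.10 and 0.23 ± 0.15, and became -0.05 without METH 3 and 0.10 without MPTP 3. Of the 29 genes, 17 had a METH minus MPTP value below 0 (58.6%), against 52.9% of all genes. That count was 10 of 29 (34.5%) without MPTP 1 and 21 of 29 (72.4%) without MPTP 3, and 20 of 29 (69%) when arrays were centred on their medians. Cytosolic synthetases held 12 of 17 values below 0, with a median of -0.03 that became 0.00 without METH 2 and 0.01 without MPTP 1.

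A single array held many of the low values. Of the 29 genes, 10 had their lowest of 9 values in METH 2, and of the 17 cytosolic synthetases, 9 did, against 16.7% of all genes. Averaged over genes, as the log2 deviation from each gene's mean over the arrays, cytosolic synthetases stood at 0.08, 0.03 and 0.03 in control 1, 2 and 3, at -0.02, -0.14 and 0.04 in METH and at 0.01, 0.02 and -0.05 in MPTP. METH 3 thus lay among the controls, and METH 2 lay apart from its group. Elongation genes were lowest in MPTP 3, at -0.13, with the other arrays between -0.03 and 0.06. On the same scale, spiny neuron markers were also lowest in MPTP 3 (-0.17, with the other arrays between -0.03 and 0.14), and the 4 blood genes tested were highest in MPTP 3 (0.37) and METH 2 (0.33), with the other arrays between -0.34 and 0.11. Mitochondrial synthetases ranged from -0.12 in control 1 to 0.16 in METH 2, so METH 2 was the highest array for these and the lowest for the cytosolic set.

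**Figure D4:**
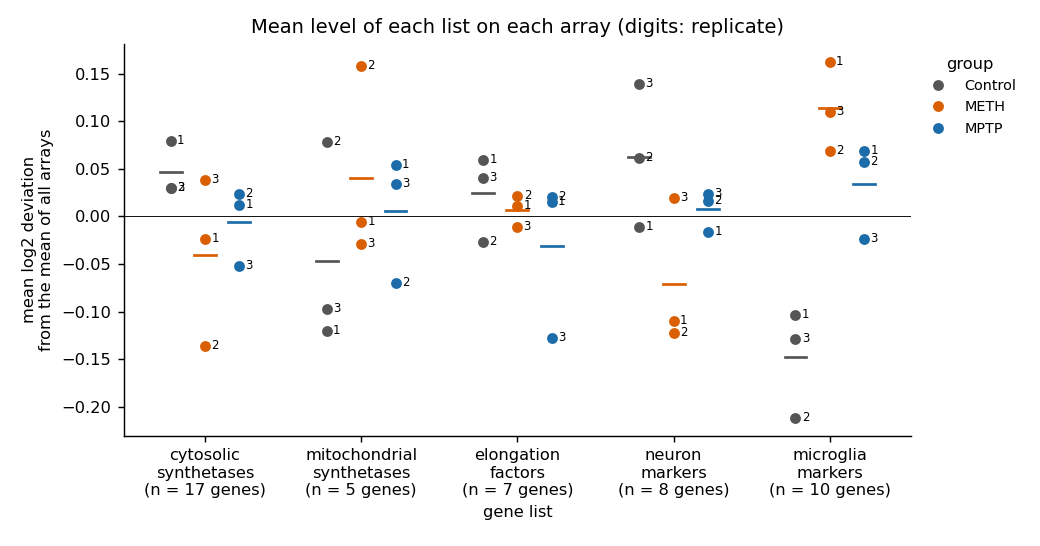
Average over the genes of each list of the log2 deviation from a gene's mean over 9 arrays (vertical axis), 1 point per array with its replicate number, coloured by group. METH 2 is the lowest array for cytosolic synthetases (-0.14) and MPTP 3 the lowest for elongation genes (-0.13).

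Markers of cell types differed between the same arrays. Of 8 neuronal genes, 6 were below control in METH (median -0.14), with summed signals of 129299 to 138454 in METH, 136098 to 151573 in control and 137496 to 142132 in MPTP. All 10 microglial genes tested, of 12 measured, were above control in METH (median 0.26) and MPTP (median 0.20), and their sums were 49473 to 55383 on control arrays, 59589 to 61327 on METH arrays and 56274 to 60278 on MPTP arrays. Of 8 astrocyte genes, 7 were above control in METH and 6 in MPTP, with sums of 49780.1 to 53864, 52787 to 63603 and 60177 to 66105. Oligodendrocyte markers, 9 genes, had 6 above control in METH and 9 in MPTP, and their sums were 149110 to 171640 on control arrays, 164595 to 171509 on METH arrays and 168492 to 186263 on MPTP arrays. Spiny neuron markers had 6 of 8 values below control in METH and 7 of 8 in MPTP (median -0.08 in each). Blood genes, with 4 tested of 8 measured, had 3 above control in METH and 4 in MPTP (medians 0.19 and 0.19), and sums of 5499 to 6998 on control arrays, 5518 to 7545 on METH arrays and 5540.3 to 7598 on MPTP arrays. Cortical genes, with 3 tested of 6 measured, had 2 below control in METH and 3 in MPTP, and sums of 13182 to 15076, 11081 to 13731 and 11912 to 13253. Choroid plexus sums ran from 4487 to 69423 and overlapped between all groups. No marker was at 0 on any array, and the part of cell composition in the values above was not tested.

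Genes around charging and elongation were read from 7 further lists, and 0 of their genes passed the test against control in either model. Other synthetase and scaffold genes had 4 of 9 values below 0 in METH and 3 of 9 in MPTP. The scaffold gene Aimp1 gave 0.01 and 0.04, and the scaffold gene Aimp2 gave -0.10 and 0.04. Pstk, the kinase that phosphorylates seryl-tRNA on the way to selenocysteine, gave 0.69 ± 0.27 in METH (limma adjusted p = 0.543) and 0.89 ± 0.27 in MPTP (adjusted p = 0.774), but its control mean of 729.6 ± 315 (SD, n = 3) was under the filter's signal and it entered the test through the treated groups. Initiation factors had 23 of 33 values below 0 in METH (median -0.04) and 16 of 33 in MPTP (median 0.01). Eif4g3, a scaffold of cap binding, gave -0.23 ± 0.08 in METH (adjusted p = 0.543), and Eif3b, a subunit of the factor that joins mRNA to the small ribosomal subunit, gave 0.60 ± 0.19 in MPTP (adjusted p = 0.812).

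Other elongation and termination genes had 6 of 12 values below 0 in METH and 7 of 12 in MPTP. Dph5, an enzyme of the diphthamide modification carried by the Eef2 protein, gave 0.64 ± 0.25 in METH (limma adjusted p = 0.543) and 0.66 ± 0.25 in MPTP (adjusted p = 0.873). Next by p in METH were Dohh, at -0.18 ± 0.10, and Dhps, at -0.21 ± 0.11. Mitochondrial translation factors had 3 of 6 below 0 in each model, with Tufm, the mitochondrial delivery factor, at -0.32 and -0.17. Genes of tRNA modification and export had 12 of 19 below 0 in METH (median -0.05) and 6 of 19 in MPTP (median 0.03). Trdmt1, a tRNA cytosine methyltransferase, gave -0.36 ± 0.12 in METH (limma adjusted p = 0.543), and Pus7, a pseudouridine synthase, gave 0.48 ± 0.19.

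ATF4-responsive genes outside the synthetases had 7 of 16 values below 0 in METH (median 0.02) and 7 of 16 in MPTP (median 0.00). Ppp1r15a, which helps to reverse eIF2 phosphorylation, gave 0.42 ± 0.18 in METH (limma adjusted p = 0.552). Next by p in METH were Shmt2, at -0.21 ± 0.11, and Ddit3, the stress factor CHOP, at 0.24 ± 0.14. The METH minus MPTP difference of Ddit3 was also 0.24 ± 0.14. Genes of the eIF2 kinases and phosphatase, which set the input to this response, had 2 of 6 below 0 in each model (medians 0.07 and 0.08). Protein, tRNA charging and codon use were not measured on these arrays.

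**Figure D5:**
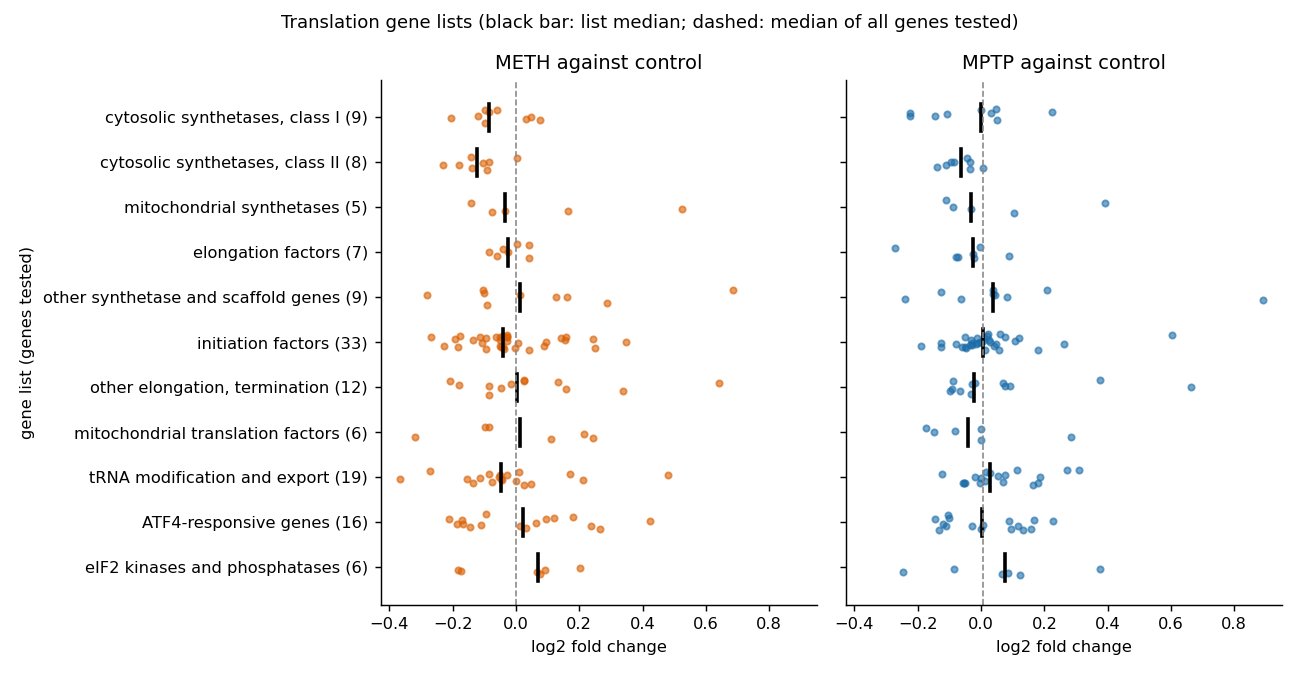
Log2 fold change against control (horizontal axis) of every tested gene of the synthetase, elongation and other translation lists, for METH and MPTP, where the black bar is a list's median and the dashed line the median of all genes tested. List medians lie between -0.12 and 0.08.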

How the data were processed

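Total RNA was labelled with biotin and hybridised to single-colour Affymetrix arrays. The deposited intensity values are linear, 1 per probe set and array. Per the submitters' processing notes RMA was used, with no settings given, but the authors' deposited intensity values are not on the log scale of RMA output, so the way probe sets were summarised stays unknown. Genes were named from the platform's annotation. Of 20380 probe sets with 1 symbol, 20351 were found by gene ID in a RefSeq table of GRCm38.p6, and 0 symbols changed. The array named in the series' design text is larger than the design whose annotation matched these probe sets.

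Values were taken as log2 with no further normalization and no pseudocount. Genes entered the fit if the mean of their brightest probe set reached 9.53 (a signal of 741), the 40th percentile over probe sets. R 4.3.3 and limma 3.58.1 were used, with all 9 arrays in 1 fit of a mean for each group (lmFit, eBayes; 6 residual and 3.9 prior degrees of freedom). Tests were two-sided. The ± after a fold change is its SE. No exact permutation test was run, since with 3 arrays against 3 its smallest p is 0.1. The fit was checked on simulated data. The number of arrays limits the precision.

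Members, lists, tests and alternatives were chosen with earlier results of these data known, so lists were given no p. Full statistics were given for the 4 members with the smallest p in each comparison and for Eef1a1, Eef1a2, Eef2 and Eef2k, and up to 3 genes with the smallest p were named from each other list. Gars and Eprs were also given in full because their arrays did not overlap. Aimp1 and Aimp2 were named as scaffolds after their values were seen. The alternatives were 2 normalizations, 2 filters, 2 probe set rules, a trended robust variance, a pseudocount of 64, only the groups compared, the replicate number as a block, and each array left out. Not every promoter stretch that matched is reported here.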

Additional observations from a re-analysis of the deposited data

How the results depend on the processing

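No synthetase or elongation gene passed the test in any of the 3 comparisons under 10 alternatives or with any of the 9 arrays left out. The count over all genes, 1 in each model and for any group, became 0 for METH, MPTP and any group when arrays were centred on their medians and under the replicate block, 0 for MPTP with only the groups compared, and 2 for MPTP with no filter. With each array left out in turn it ranged from 0 to 2 for METH, for MPTP and for any group. Same-numbered arrays did not deviate together (correlations of -0.152 to 0.0468, 0 of 9 pairs over 0.1), so the numbers were not taken to pair the arrays.

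Centring on array medians moved the median of all 29 genes in METH to -0.14. Without each array in turn, the mitochondrial median ranged from -0.0482 to 0.11 in METH and from -0.0755 to 0.10 in MPTP. Of 447 alternative values of the genes given in full, 417 kept their sign and 30 turned, and the lowest adjusted p was 0.479. The other filters, the trended robust variance, the replicate block and only the groups compared leave a fold change as it is. So does leaving out an array of the group not compared. Signs under these settings could not turn, so the count of kept signs does not measure stability. Under quantile normalization Eef1a1 (0.0579), Eef2 (0.0042) and Eef2k (-0.0214) turned in METH and Eef1a2 (0.0213) and Eef2 (0.0063) in MPTP. Under centring Eef1a2 (-0.0601) and Eef2k (-0.0230) turned in METH and Eef1a2 (-0.0165) between the models. With the mean of all probe sets Qars became -0.0139 in MPTP and 0.0210 between the models. With single arrays left out, METH values ranged from -0.0924 to 0.0430 for Eef1a1, -0.0672 to 0.0569 for Eef1a2 and -0.11 to 0.18 for Eef2k. MPTP values ranged from -0.0742 to 0.0499 for Eef1a2, -0.0754 to 0.0536 for Eef2 and -0.15 to 0.0023 for Eef2k, and values between the models from -0.0626 to 0.0717, -0.11 to 0.0068 and -0.0385 to 0.25 for the same 3 genes. Ears2 had no value under the filter at the 60th percentile, with all probe sets averaged or without probe sets of shared sequence. The cause of these turns was not tested.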
